A study of Mus musculus with 28 samples.

Results

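The genes described here encode the core machinery that docks, primes and fuses vesicles: the synaptotagmins (Syt), syntaxins (Stx), vesicle-associated membrane proteins (Vamp), Snap proteins, complexins (Cplx), Rims, Munc13 proteins (Unc13) and the SV2 proteins. They were chosen by symbol alone, with no measured value in the rule, and 47 of the 14711 genes in the deposited tables matched: 14 Syt, 11 Stx, 6 Vamp, 4 Snap, 4 Cplx, 2 Rims, 3 Unc13 and 3 Sv2 genes. All 6 tables held 45 of them, among 12804 shared genes. The counts were high enough to test 43 members in at least 1 comparison and 41 in all, and Cplx4, Syt15, Unc13d and Vamp5 were too low in every one. Stx1a, Rims1, Rims2 and Unc13a were not analysed here.

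The mice were C57BL/6 animals 3 to 4 weeks old that carried 1 copy of LSL-Rpl22-HA, a ribosomal protein gene that gains an HA tag only in cells with Cre, together with CaMK2a-Cre (genotype CaMK2a-Cre/+; LSL-Rpl22-HA/+) or with PV-Cre. CaMK2a-Cre tags mainly pyramidal neurons and PV-Cre tags parvalbumin interneurons, so each tag marks the cells in which its driver has been active. Mice of either line received kainic acid, a glutamate receptor agonist that drives strong network activity, or PBS, and hippocampal CA1 was taken at 6 h. Each pool of tissue gave an input library of the whole lysate and an anti-HA immunoprecipitate (IP) of ribosome-bound RNA, which made 8 groups, with 3 pools of 4 mice per treatment in the CaMK2a line and 4 pools of 9 to 10 mice in the PV line. The column names give the PBS groups a time of 0 h where the labels give 6 h.

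A synaptic vesicle fuses when Vamp on the vesicle zips together with syntaxin and Snap25 on the plasma membrane. Synaptotagmin on the vesicle senses calcium, complexin clamps and then helps the assembled SNARE complex, and Rim and Munc13 proteins prepare the release site. Most of these proteins come as sister isoforms, and fast-spiking parvalbumin interneurons are known for synaptotagmin 2, the fast sensor of many inhibitory terminals, where forebrain pyramidal cells use synaptotagmin 1.

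Syt2, Vamp1 and Cplx1 were the members most enriched in the PV IP, and the 250 bases before an annotated start of these 3 genes are shown to set their promoters side by side. The sequences are from RefSeq on GRCm38.p6, each printed in the direction of its gene, at chr1:134646362-134646611 on the plus strand for Syt2, chr6:125215331-125215580 on the plus strand for Vamp1 and chr5:108550028-108550277 on the minus strand for Cplx1.
Syt2: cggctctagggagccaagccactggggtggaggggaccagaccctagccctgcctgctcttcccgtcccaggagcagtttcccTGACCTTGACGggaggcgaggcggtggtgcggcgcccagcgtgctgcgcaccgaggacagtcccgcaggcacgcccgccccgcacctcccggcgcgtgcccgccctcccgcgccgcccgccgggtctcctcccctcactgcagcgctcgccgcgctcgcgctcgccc
Vamp1: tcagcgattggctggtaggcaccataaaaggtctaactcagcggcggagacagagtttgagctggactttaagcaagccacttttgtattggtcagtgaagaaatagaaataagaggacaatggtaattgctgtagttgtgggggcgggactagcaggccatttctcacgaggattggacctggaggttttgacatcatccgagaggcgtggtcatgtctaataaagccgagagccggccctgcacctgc
Cplx1: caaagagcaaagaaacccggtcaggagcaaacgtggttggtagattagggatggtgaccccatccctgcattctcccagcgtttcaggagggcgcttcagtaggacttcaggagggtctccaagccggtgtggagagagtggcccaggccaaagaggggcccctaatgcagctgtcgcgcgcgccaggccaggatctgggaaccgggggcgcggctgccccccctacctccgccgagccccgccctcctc
The capitals mark a match of the nuclear receptor letters AAGGTCA, read here on the other strand, 167 bases before the Syt2 start, which overlaps a match of TGACG, the core of the cAMP response element, at 161 bases. These and 3 further motifs (TGACGTCA, TGANTCA and GCGGGGGCG) were searched on both strands, and none of the 5 was found in the Vamp1 or Cplx1 window. AAGGTCA was in 4.08% and TGACG in 17.8% of all 32851 promoters of that length. The Syt2 window was 76% G and C, that of Cplx1 64.8% and that of Vamp1 50.4%. Promoters were listed for 34 of the 47 members, 43 in all, and 7 of these 43 (16.3%) held TGACG.

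The libraries held 6.06 to 15.8 M counts in genes, and levels are given as CPM, the count of a gene relative to the total of its library, with that total scaled by TMM factors. The tagged cells carried their markers: the sum of 6 of 6 listed parvalbumin cell markers was 2191 to 2827 CPM in the PV IP after PBS and 205.1 to 233.1 CPM in the CaMK2a IP. The sum of 8 of 8 pyramidal markers was 4428 to 5412 CPM in the PV IP and 10460 to 11960 CPM in the CaMK2a IP, so pyramidal RNA was present in the PV IP too. Glial RNA was also higher in the PV IP than in the CaMK2a IP after PBS, with sums over 5 of 7 oligodendrocyte markers of 3249 to 4950 CPM against 632.9 to 1262 CPM and over 4 of 6 astrocyte markers of 569.4 to 679.2 against 141.7 to 212.4 CPM. None of these summed markers was at 0 throughout a group. Replicate 4 of the PV line stood apart in its inputs: Snap25, for example, was at 5958 CPM in the PBS input of that replicate and at 10265 to 10591 in the other 3. The lines also differed in the RNA taken into SPIA amplification (20 ng in the CaMK2a line, 2.5 ng in the PV line), so line and preparation cannot be told apart in a direct comparison of the lines. Bulk RNA cannot tell fewer cells of a type from less RNA per cell.

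The first question was which members stood higher or lower in tagged cells than in whole CA1. In the CaMK2a line after PBS, 26 of 42 members tested were higher in the IP than in the input and 7 lower, by edgeR's quasi-likelihood test at an adjusted p under 0.05, where 32.6% of all 11190 genes were higher and 31.6% lower. The members' median log2 fold change was 0.31 and that of all genes -0.01. With upper-quartile factors, which moved the median of all genes to -0.13, the members split 17 higher and 10 lower. In the PV line after PBS 8 of 42 were higher and 7 lower, where 10.6% and 7.98% of all 11204 genes were, and the members' median was -0.10 against 0.02 for all genes. The 7 lower PV calls became 4 without PBS input replicate 1.

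Among the calcium-sensing synaptotagmins, Syt2 gave the largest difference. The 4 PV IPs after PBS held 575, 753, 686 and 547 CPM of Syt2, and the matching inputs held 36.1, 45.3, 31.4 and 44.9 CPM. In the CaMK2a line the 3 IPs held 29.9, 21.4 and 26.0 CPM and the 3 inputs 47.9, 38.7 and 38.7. Syt2 was thus far above input in every PV IP and below input in every CaMK2a IP, with no overlap in either line. The log2 fold change was 4.05 (SE 0.18), or 16.6-fold, in the PV line (edgeR adjusted p = 1.26e-08) and -0.67 (SE 0.12) in the CaMK2a line (adjusted p = 0.000185). Syt1 showed another pattern. It held 2299.6, 2181 and 2416 CPM in the CaMK2a IPs against 1417, 1438 and 1369 in their inputs, a rise of 0.73 (SE 0.05) on the log2 scale (edgeR adjusted p = 2.71e-09). In the PV line Syt1 held 1925, 2112, 1908 and 1963 CPM in the IPs and 1903, 1809, 1833 and 1662 in the inputs, a difference of 0.17 (SE 0.12) that did not pass (adjusted p = 0.364). Syt1 remained the more abundant of the 2 sensors in the PV IP, at 380 ± 18 CPM per kb of gene length against 80.6 ± 12 for Syt2 (SD, n = 4). Pyramidal RNA was present in that IP too, and its part in the Syt1 level was not tested.

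Of the other 11 synaptotagmins tested, 7 were higher and 1 lower in the CaMK2a IP, where 32.6% and 31.6% of all genes were. In the PV IP 0 were higher and 3 lower, where 10.6% and 7.98% were. The 6 calcium-sensing synaptotagmins, with Syt1 and Syt2, gave 3 higher and 1 lower in the CaMK2a IP, and 3 and 2 with upper-quartile factors. The 7 synaptotagmins outside that class gave 5 and 1, and 4 and 2 with those factors. Syt5, Syt16 and Syt4 were lower in the PV IP than in its input, by log2 fold changes of -1.39 (SE 0.34), -1.11 (SE 0.17) and -0.55 (SE 0.18), and Syt16 and Syt4 were higher in the CaMK2a IP, by 0.83 and 0.63. The Syt4 call in the PV line ended without any 1 of 6 libraries (PBS input replicates 1 to 3 and IP replicates 2 to 4), with adjusted p up to 0.129 over all alternatives. Syt14 was higher in the CaMK2a IP by 1.32 (SE 0.08), the largest rise there after Snap25. Syt7, a slow, high-affinity calcium sensor, held 399, 439 and 409 CPM in the CaMK2a IPs and 339, 366 and 323 in the inputs, and 364, 481, 435 and 358 CPM in the PV IPs and 334, 301, 311 and 356 in the inputs. It was higher in the CaMK2a IP by 0.30 (SE 0.06), and in the PV line by 0.36 (SE 0.14), a difference that missed the threshold without pairing (edgeR adjusted p = 0.0883) and passed it with input and IP paired by pool (0.0156). The pairing brought 5 PV calls in all: Sv2a, Syt3 and Syt7 higher, Syt10 and Syt11 lower. Over all 11204 genes it moved the PV counts from 1183 higher and 894 lower to 1771 and 1599.

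Of the SNAREs of the synapse, Vamp1 went with the PV line and Snap25 with both. Vamp1 held 489, 570, 427 and 496 CPM in the 4 PV IPs after PBS and 74.3 to 91.7 in their inputs. In the CaMK2a line it held 91.2, 90.2 and 98.5 CPM in the IPs and 97.4, 93.2 and 115 in the inputs. Vamp1 was therefore high in the PV IPs alone, by 2.62 on the log2 scale (SE 0.15, edgeR adjusted p = 6.12e-08), and its CaMK2a difference of -0.10 did not pass (adjusted p = 0.28), though with upper-quartile factors it did (-0.22, adjusted p = 0.0253). Vamp2, the main vesicle SNARE of forebrain synapses, held 2267, 2022 and 2335 CPM in the CaMK2a IPs and 1602, 1683 and 1756 in the inputs, and 1188, 1448, 1291 and 1296 CPM in the PV IPs and 1361, 1427, 1366 and 1372 in the inputs. It was higher in the CaMK2a IP by 0.41 (SE 0.06) and differed by -0.05 (SE 0.12, adjusted p = 0.825) in the PV line. Snap25, the plasma membrane SNARE and the most abundant member per kb of length, held 17090, 16773 and 19206 CPM in the CaMK2a IPs and 6202, 6449 and 6240.4 in the inputs. In the PV line it held 15532, 17521, 16678 and 12375 CPM in the IPs, all above the 5958 to 10591 of the inputs. Snap25 was higher over input in both lines, by 1.51 (SE 0.05) in the CaMK2a IP and 0.77 (SE 0.18) in the PV IP.

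Among the SNAREs of other membranes, 11 of the 15 tested were higher in the CaMK2a IP, where 32.6% of all genes were, and 5 with upper-quartile factors. Among them were Stx7 and Stx12 of endosomes (0.69 and 0.60) and Vamp4 (0.64), whose calls held with those factors. Vamp3, Snap23 and Vamp8, broadly expressed SNAREs of non-neuronal secretion, were the 3 lower ones. Vamp3 was at 14.1, 24.4 and 18.1 CPM in the CaMK2a IPs and 58.5, 48.2 and 45.7 in the inputs, a log2 fold change of -1.45 (SE 0.16, edgeR adjusted p = 4.94e-07). Vamp8 was low throughout, at 0 to 0.321 CPM in the CaMK2a IPs and 3.57 to 5.08 in the inputs, and passed the filter through the inputs. The oligodendrocyte marker sum moved the same way in the CaMK2a line, from 3611 to 4197 CPM in the inputs to 632.9 to 1262 CPM in the IPs, and its part in these falls was not tested.

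Complexins and SV2 proteins split between isoforms. Cplx1 held 1632, 1972, 1803 and 2157 CPM in the PV IPs after PBS and 492 to 595 in the inputs, and it held 410.1, 374 and 455 CPM in the CaMK2a IPs and 669, 648 and 751 in the inputs. Cplx2 held 778, 698, 787 and 569 CPM in the PV IPs and 1001 to 1358 in the inputs, and 1666, 1660 and 1964 CPM in the CaMK2a IPs and 989 to 1042 in the inputs. Both complexins thus moved in opposite directions in the lines: Cplx1 by 1.86 (SE 0.14) in the PV IP and -0.72 (SE 0.07) in the CaMK2a IP, and Cplx2 by -0.77 (SE 0.14) and 0.80 (SE 0.06), all 4 past the edgeR threshold. Sv2b, a vesicle glycoprotein, held 782, 557, 613 and 516 CPM in the PV IPs and 1266 to 1599 in the inputs, and 1442, 1512 and 1676 CPM in the CaMK2a IPs and 1290.4, 1314 and 1335 in the inputs. It was lower in the PV IP by -1.24 (SE 0.15, edgeR adjusted p = 6.95e-05) and higher in the CaMK2a IP by 0.25 (SE 0.06), though the latter call ended with upper-quartile factors and with all 4 groups of the line in 1 fit. Sv2a held 187, 189.9 and 187 CPM in the CaMK2a IPs and 325, 358 and 351 in the inputs, a difference of -0.85 (SE 0.06), and in the PV line it held 291, 267, 256 and 388 CPM in the IPs and 217, 195, 198 and 402 in the inputs. At the release site, Unc13c held 59.4, 47.6, 93.8 and 52 CPM in the PV IPs and 21.7 to 37.9 in the inputs, with no overlap. Rims4 (1.39, SE 0.24) and Unc13c (1.26, SE 0.25) were higher in the PV IP, and Unc13b (0.97, SE 0.10) in the CaMK2a IP.

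**Figure D1:**
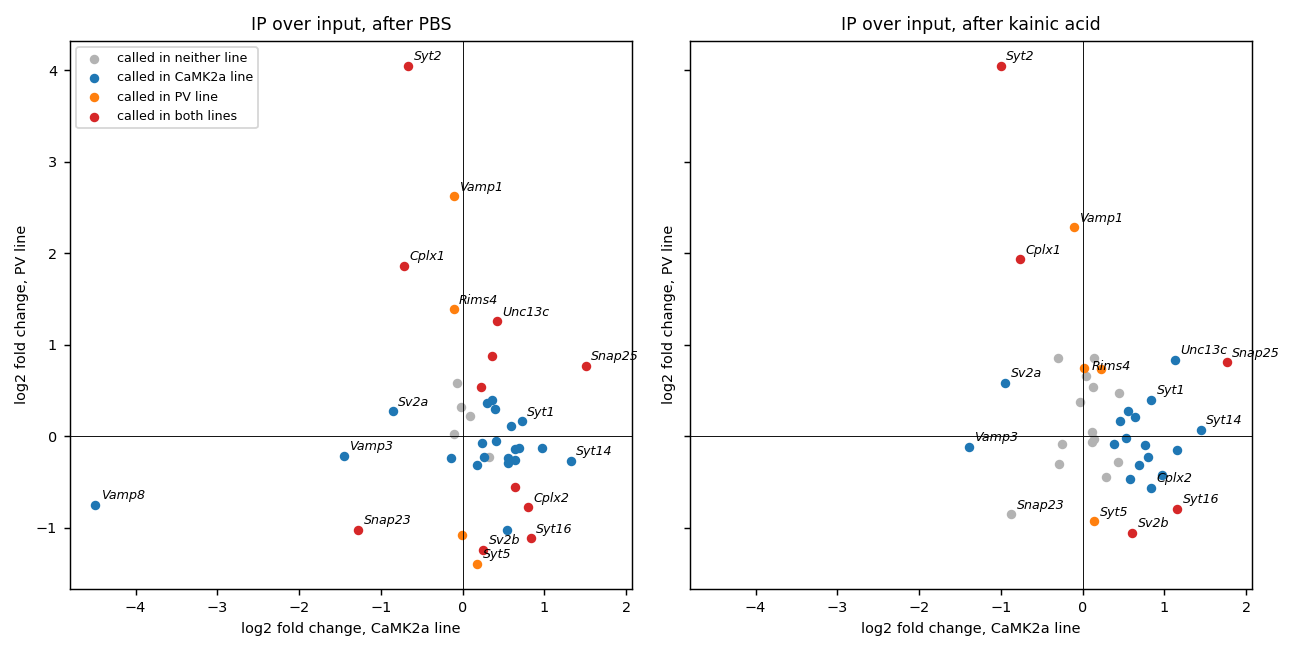
Log2 fold change of IP over input for the members reported, with the CaMK2a line on the x axis and the PV line on the y axis, after PBS (left) and after kainic acid (right). Colours give the lines in which a member passed the edgeR threshold. Syt2, Vamp1 and Cplx1 lie at the top in both panels, and Snap25 is the farthest to the right.

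In all, 4 members were higher in the CaMK2a IP and lower in the PV IP (Cplx2, Sv2b, Syt16 and Syt4), 2 the reverse (Cplx1 and Syt2), 4 higher in both (Snap25, Snap47, Stx17 and Unc13c) and Snap23 lower in both. These joint calls were not counted over all genes, so whether they are particular to the members cannot be told. The Snap23 call in the PV line ended without any 1 of 6 libraries (PBS replicates 1 to 3 of either fraction) and with all groups of the line in 1 fit. That of Unc13c in the CaMK2a line ended without PBS IP replicate 1, with all groups of the line in 1 fit and with upper-quartile factors, which also ended the CaMK2a calls of Snap47, Stx17 and Sv2b. The difference of the 2 enrichments was tested in a model of the 4 PBS groups, without pairing input and IP by pool. It was positive (more PV) for 7 of 42 members and negative for 17, where 13.3% and 14.3% of all 11760 genes were. Syt2 (4.67, SE 0.24), Vamp1 (2.68, SE 0.17), Cplx1 (2.53, SE 0.17), Rims4 (1.46, SE 0.30), Sv2a (1.08, SE 0.30) and Vamp3 (1.16, SE 0.28) were 6 of the 7, and the last was Vamp8, at under 6 CPM in each library. Syt16 (-2.0), Syt14 (-1.64), Cplx2 (-1.63), Syt10 (-1.62), Syt5 (-1.62) and Sv2b (-1.54) were the most negative.

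The enrichments were alike after kainic acid, in libraries from other pools. In the CaMK2a line 19 of 43 members were higher and 6 lower, where 24.3% and 25.8% of all genes were (13 higher and 9 lower with upper-quartile factors, and 11 higher without kainic acid input replicate 1), and in the PV line 6 of 41 were higher and 3 lower, where 6.85% and 4.11% were. With input and IP paired by pool, the PV counts were 12 and 5, where 1313 and 1082 of all 11205 genes were called. The 3 lower PV calls became 0 without kainic acid IP replicate 3 and 1 without input replicate 1, 2 or 3. Syt2 (4.05, SE 0.21), Vamp1 (2.28, SE 0.21) and Cplx1 (1.94, SE 0.21) led again in the PV IP, with Snap25 (0.81) and Syt13 (0.74) next, and Sv2b (-1.05), Syt5 (-0.93) and Syt16 (-0.79) were lower. Those of Syt13, Sv2b, Syt5 and Syt16 each ended without several single libraries. In the CaMK2a IP Snap25 (1.76, SE 0.13), Syt14 (1.44, SE 0.20), Syt16 (1.16), Unc13b (1.15) and Unc13c (1.13) were highest over input, and Vamp3 (-1.39), Syt2 (-1.0) and Sv2a (-0.95) were among the lower ones, with Vamp8 and Stx11 at under 4 CPM. All 24 members called in the CaMK2a line after kainic acid and tested after PBS had the same sign there, as did the 9 of the PV line. Sign agreement over all called genes was not counted. Across members Pearson's r between the treatments was 0.96 in the CaMK2a line (42 members) and 0.94 in the PV line (41 members). The points share each gene's base composition and length.

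Set side by side after PBS, the PV IP was higher than the CaMK2a IP for 8 of 41 members and lower for 14, where 18% and 14.3% of all 11131 genes were, with a median of -0.40 against 0.06 for all genes. Syt2 was 24.6-fold higher (log2 4.62, SE 0.19, edgeR adjusted p = 3.2e-08), Vamp1 5.27-fold (adjusted p = 3.7e-07) and Cplx1 4.54-fold (adjusted p = 5.96e-07). Unc13c, Rims4, Vamp3, Stx17 and Sv2a were the other 5, by 0.66 to 1.52 on the log2 scale. Vamp3 moved with the glial marker sums given above, whose part in it was not tested. The 14 lower members included Syt5 (-2.39, SE 0.35), Syt16, Sv2b, Cplx2, Syt12, Stx6, Syt4, Vamp2, Syt17, Unc13b, Syt14, Stx7 and Stx16. Syt5 held 27.8, 15.6, 34.6 and 64.0 CPM in the PV IPs and 207, 175 and 174 in the CaMK2a IPs, with no overlap, and it was also lower in the PV input than in the CaMK2a input (-0.82, SE 0.18). Snap25 (-0.20, 95% interval -0.46 to 0.06), Syt1 (-0.23, -0.44 to -0.01) and Syt7 (-0.03, -0.30 to 0.23) did not pass. After kainic acid 4 members were higher and 9 lower, where 12.9% and 8.94% of all genes were, and Syt2 (4.72, SE 0.26), Cplx1 (2.24, SE 0.22) and Vamp1 (2.23, SE 0.23) led again. Syt5 (-1.99, SE 0.22), Syt10 (-1.52, SE 0.35), Syt16 (-1.33), Sv2b (-1.3) and Stx4a (-1.27, SE 0.18) were the lowest. The 9 lower members became 5 without CaMK2a replicate 3, which also ended the Syt10 call, and 6 without CaMK2a replicate 2.

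**Figure D2:**
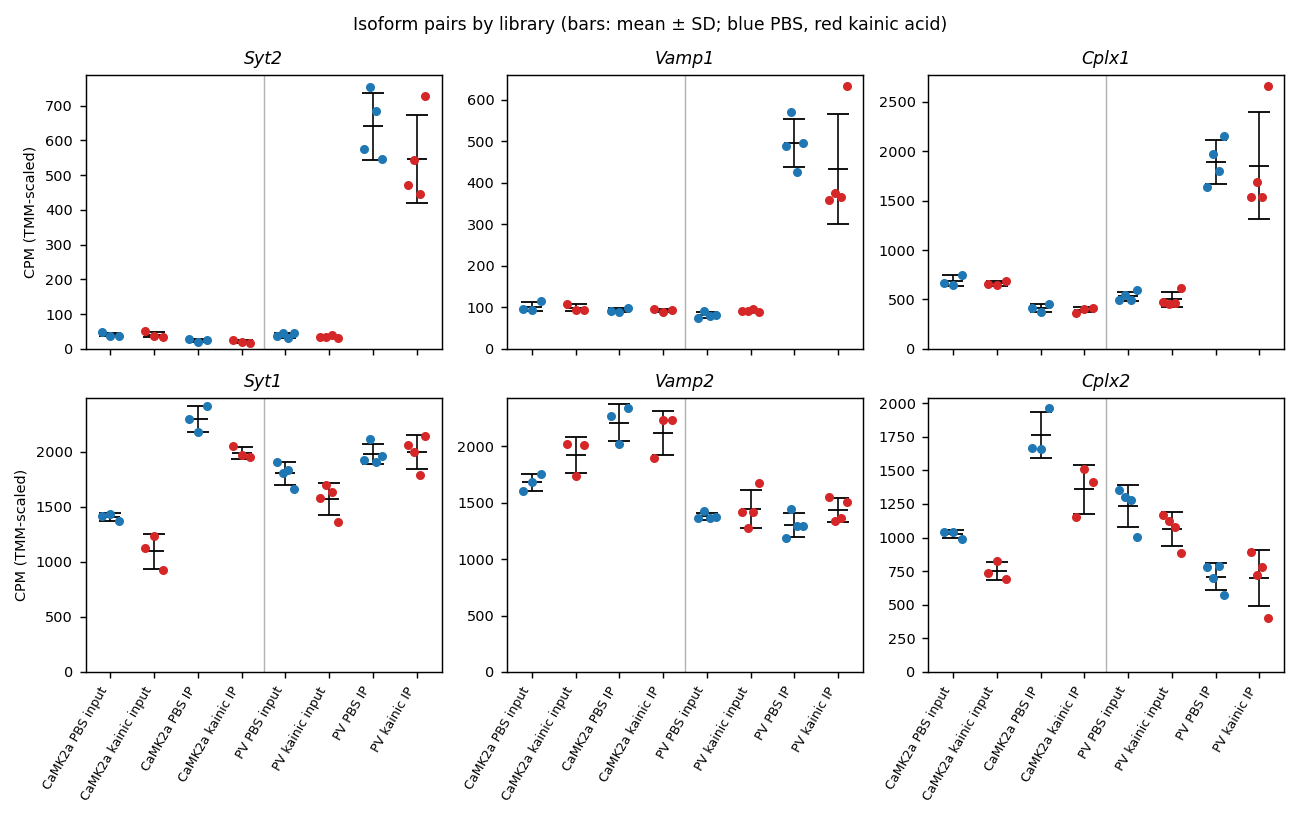
Level in CPM of 3 isoform pairs in each of the 28 libraries, by group on the x axis, with bars for mean and SD. Syt2, Vamp1 and Cplx1 (top) are high in the PV IP groups, and Cplx2 (bottom right) is highest in the CaMK2a IP groups.

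With all libraries, fewer members were called between the inputs of the lines than between the IPs. After PBS 3 of 42 members were higher in the PV input and 4 lower, where 11.4% and 6.39% of all genes were. Syt14 (0.95, SE 0.19) was the highest, and Vamp8 (-1.65, SE 0.43) and Syt5 the lowest. These counts turned on single libraries: without PV replicate 4 they were 17 and 15, and without any 1 of the other 6 libraries 0 and 0. Without PV replicate 4, 3002 of all 11238 genes were higher and 2979 lower between the inputs. Between the IPs the numbers were 2347 and 2058 of 10930. Whether the inputs differed less than the IPs is thus not settled by these counts.

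Shares of isoforms, from counts per kb in each library, give the same split within sets of sisters. After PBS, Syt2 made up 16.4, 19.0, 19.1 and 15.5% of Syt1 plus Syt2 in the PV IPs and 0.846, 0.638 and 0.70% in the CaMK2a IPs. Vamp1 made up 22.0, 21.3, 18.5 and 20.8% of Vamp1 plus Vamp2 in the PV IPs and 2.69, 2.97 and 2.81% in the CaMK2a IPs. Cplx1 made up 82.5, 86.4, 83.7 and 89.5% of Cplx1 plus Cplx2 in the PV IPs and 35.6, 33.6 and 34.3% in the CaMK2a IPs. So the larger complexin differed between the IPs of the lines, whereas Syt1 and Vamp2 stayed the larger part in both. Pyramidal RNA was present in the PV IP too, and its part in these shares was not tested. Sv2b made up 59.9, 53.8, 57.3 and 43.1% of the 3 SV2 genes in the PV IPs and 80.5, 81.1 and 82.6% in the CaMK2a IPs. None of the 4 shares overlapped between the lines, after PBS or after kainic acid. The exact two-sided permutation p was 0.0571 for each, the smallest that 4 against 3 libraries allow, and 0.171 after Benjamini-Hochberg adjustment over 24 tests of shares.

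**Figure D3:**
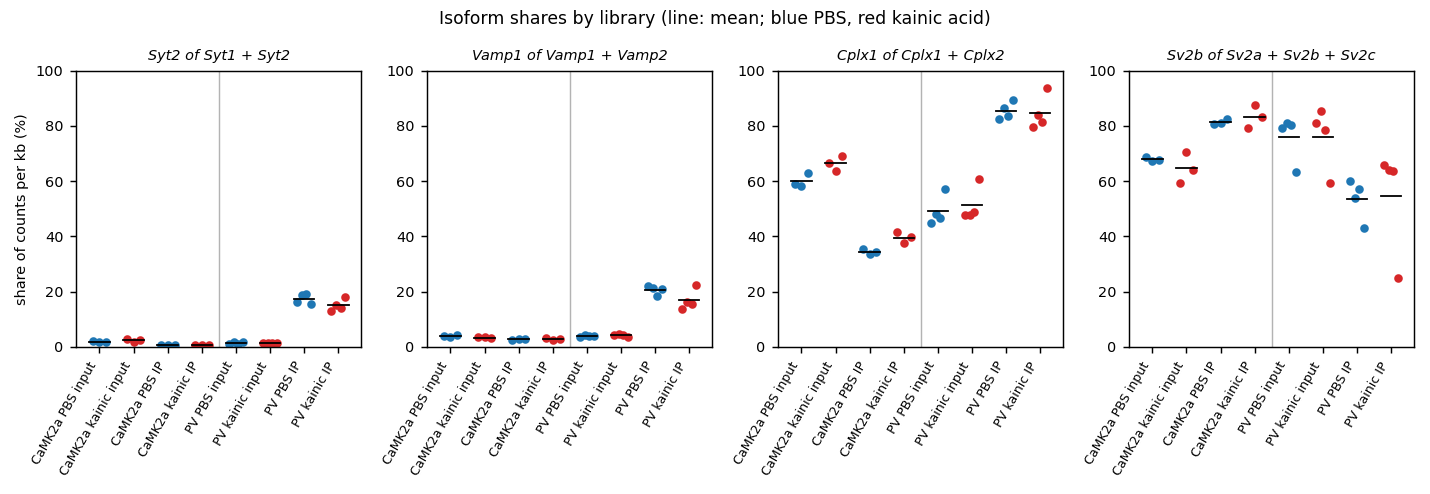
Share of an isoform in its set, as a percentage of counts per kb, in each library, by group, with a line at the mean. The PV IP groups lie above the other groups for Syt2, Vamp1 and Cplx1, and below the CaMK2a IP groups for Sv2b.

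The other question was what kainic acid changed. In the CaMK2a IP 8 of 41 members were higher after kainic acid and 10 lower, where 19.8% and 15.3% of all 10663 genes were. The share of members called higher was close to that of all genes, and the members' median was 0.03 against 0.01. The 8 became 5 without PBS replicate 1. Upper-quartile factors moved the split to 6 and 13. In the CaMK2a input 8 of 43 members were higher and 12 lower, where 19.3% and 15.7% of all 11287 genes were. Of all members called in the CaMK2a IP, 14 were also called in the input of the same pools, each in the same direction. That overlap was not counted over all genes.

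Syt4, an activity-induced synaptotagmin that lacks normal calcium binding, had the largest rise in the CaMK2a IP. It held 274, 271 and 293 CPM in the CaMK2a IPs after PBS and 1500.3, 636 and 1415 after kainic acid. In the inputs it held 188, 179.8 and 179 CPM after PBS and 1030, 672 and 893 after kainic acid. Every library after kainic acid lay above every library after PBS, with replicate 2 the lowest of its group in either fraction. The rise was 2.09 on the log2 scale (SE 0.26), or 4.27-fold, in the IP (edgeR adjusted p = 0.000279) and 2.25 (SE 0.13) in the input (adjusted p = 3.23e-10). GENCODE M21 places an exon of a long noncoding RNA on the strand opposite Syt4, and strandedness is not stated, so their reads cannot be told apart.

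Rims4, a short Rim protein, held 31.2, 25.3 and 26.0 CPM in the CaMK2a IPs after PBS and 53.9, 64.3 and 65.4 after kainic acid, a rise of 1.16 (SE 0.13, edgeR adjusted p = 0.000127). Sv2c, the SV2 isoform of few forebrain cells, held 15.5, 14.4 and 18.6 CPM after PBS and 35.7, 27.1 and 22.2 after kainic acid, a rise of 0.81 (SE 0.19, adjusted p = 0.00879). Stx4a, a plasma membrane syntaxin, held 62, 59.3 and 67.3 CPM after PBS and 128, 128 and 125 after kainic acid, a rise of 1.02 (SE 0.09, adjusted p = 3.42e-05). In none of these 3 did the groups overlap. Stx3, a syntaxin of dendritic and apical membranes, rose by 0.77 (SE 0.15), and all 4 also rose in the CaMK2a input, by 0.57 to 1.05. Stx4a shares exon sequence with a gene on the opposite strand, whose reads cannot be told apart from its own.

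Syt10, known as an activity-induced synaptotagmin of the hippocampus, held 12.5, 16.3 and 15.1 CPM in the CaMK2a IPs after PBS and 27.4, 16.9 and 31.8 after kainic acid. Its rise of 0.81 (SE 0.23, edgeR adjusted p = 0.0205) ended without kainic acid replicate 3 or PBS replicate 1 or 3. Vamp4 rose by 0.29 in the IP, and in the input Syt12 (0.60) and Vamp3 (0.34) rose. Stx11, a syntaxin of immune cells, was at 0.250, 0.0906 and 0 CPM in the CaMK2a inputs after PBS and 1.31, 1.98 and 1.84 after kainic acid (edgeR adjusted p = 0.000841), and it passed the filter only through the latter. The endothelial marker sum over 4 of 4 genes was 32.78 to 38.23 CPM in those inputs after PBS and 48.1 to 51.98 after kainic acid, and the microglial sum over 5 of 5 was 236.7 to 258.3 and 185.9 to 225.8. Their part in the Stx11 values was not tested.

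The fall of Syt3, a calcium-sensing synaptotagmin, was the largest. It held 105, 97.4 and 104 CPM in the CaMK2a IPs after PBS and 42.1, 50.5 and 41.4 after kainic acid, with no overlap. The log2 fold change was -1.18 (SE 0.11, edgeR adjusted p = 3.58e-05) in the IP and -1.0 (SE 0.12) in the input. The endosomal syntaxins Stx7 (-0.68, SE 0.11) and Stx12 (-0.49, SE 0.08) fell, as did Stx17 (-0.67, SE 0.12), the syntaxin of autophagosomes, and all 3 fell in the input too. Syt14 (-0.58), Syt16 (-0.54), Syt7 (-0.38), Syt11 (-0.38), Cplx2 (-0.37) and Stx16 (-0.30) were the other falls of the IP. Syt1 (-0.36), Syt13 (-0.48) and Syt17 (-0.59) fell in the input and not in the IP by these calls, and the difference between fractions was not tested. The Syt1 call in the input ended without PBS replicate 1 or 2. The calls of Cplx2, Syt7 and Stx16 in the IP were the less firm ones: those of Cplx2 and Syt7 ended without single libraries (Cplx2 without kainic acid replicate 3 or PBS replicate 1 or 3, Syt7 without PBS replicate 2), and that of Stx16 had an adjusted p of 0.0495. The pyramidal marker sum was 8435 to 9969 CPM in these IPs after kainic acid and 10460 to 11960 after PBS, and the sum over markers of other interneurons was 3254 to 3728 CPM after kainic acid and 2366 to 2736 after PBS, neither with overlap. Singly, 4 of the 8 pyramidal markers were called lower and 4 were not called. Among the 8 markers of other interneurons, 3 were called higher and 5 were not called. After PBS, 7 of the latter 8 were lower in this IP than in its input and 1 was higher. The part of these markers in the rises and falls of the CaMK2a IP was not tested.

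**Figure D4:**
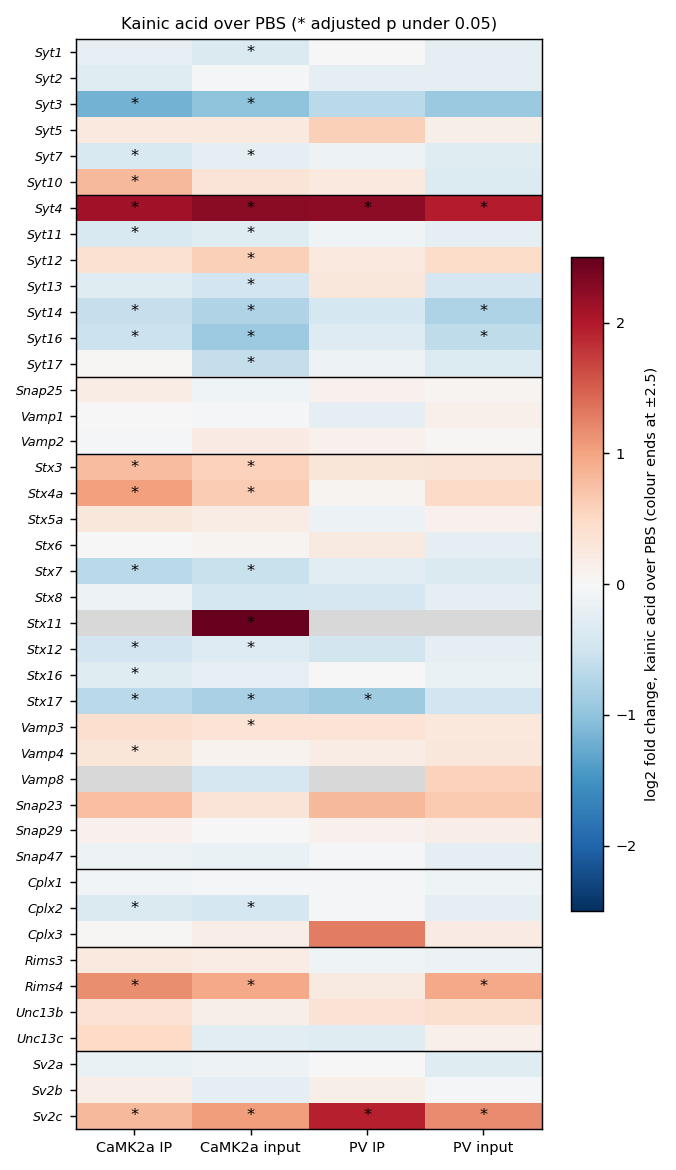
Log2 fold change of kainic acid over PBS for the members reported (rows, grouped by role) in the 4 fractions (columns), with a star where the edgeR adjusted p is under 0.05 and grey where a member was not tested. Colour ends at 2.5, which Stx11 exceeds, and Syt4 and Sv2c are starred in all 4 columns.

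The main genes of fast release gave smaller differences in the CaMK2a IP. After kainic acid Snap25 held 20947, 18951 and 20400 CPM, Syt1 2052, 1967 and 1951 CPM, Vamp2 1894, 2229.5 and 2235 CPM and Cplx1 365, 403 and 414 CPM. Of these, Syt1 lay below its 3 PBS libraries without overlap, and the others overlapped with theirs. Snap25 (0.19, 95% interval 0.04 to 0.34, edgeR adjusted p = 0.0791), Vamp2 (-0.05, -0.23 to 0.12), Vamp1 (0.00), Syt1 (-0.20, adjusted p = 0.0578) and Cplx1 (-0.06, adjusted p = 0.65) did not pass. The share of Cplx1 in the complexins was 41.5, 37.5 and 39.7% after kainic acid against 35.6, 33.6 and 34.3% after PBS, with no overlap. Its exact two-sided permutation p was 0.10, the smallest that 3 against 3 libraries allow, and 0.218 adjusted. None of the 24 tests of shares passed. With groups this small none could pass after adjustment, since even 4 against 4 libraries allow no p below 0.0286. These tests therefore cannot tell whether kainic acid changed a share.

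In the PV IP 2 of 41 members were higher after kainic acid and 1 lower, where 4.05% and 0.801% of all 11107 genes were. The spread between replicates was wider there, with a biological coefficient of variation of 44.3% against 14.8% in the CaMK2a IP. In simulated counts the test found 42% of 2-fold changes in the PV IP and 86% in the CaMK2a IP. False calls were 9 of 137 and 19 of 205. The simulation changed 100 genes 2-fold and 100 genes 4-fold, far fewer than were called in the CaMK2a IP itself. Syt4 held 205, 171, 161 and 117 CPM in the 4 PV IPs after PBS and 695, 676, 829 and 903 after kainic acid. Sv2c held 12.4, 10.2, 9.48 and 6.48 CPM after PBS and 27.1, 49.4, 30.0 and 44.8 after kainic acid. Both rose without overlap, Syt4 by 2.23 (SE 0.20, 4.68-fold, edgeR adjusted p = 1.59e-06) and Sv2c by 1.95 (SE 0.33, 3.87-fold, adjusted p = 0.00125), and both calls held in all 16 alternatives. Over the same libraries the pyramidal marker sum was 4428 to 5412 CPM after PBS and 3653 to 6712 after kainic acid. The sum over 8 of 9 markers of other interneurons was higher after kainic acid in the PV IP, at 907.1 to 977.3 CPM after PBS and 1623 to 2090 after kainic acid, as was the endothelial sum, at 10.83 to 24.5 and 26.04 to 45.41 CPM, both without overlap. Singly, 2 of the 8 markers of other interneurons were called higher and 6 were not called, and 0 of the 4 endothelial markers were called. The part of these markers in the rises was not tested.

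Stx17 was the member that fell in the PV IP, from 77.6, 49.1, 63.6 and 52.2 CPM after PBS to 28.7, 35.6, 27.9 and 41.4 after kainic acid (-0.88, SE 0.24, edgeR adjusted p = 0.049). The groups did not overlap, but the call ended in 9 of 16 alternatives, among them relative log expression factors and the loss of any 1 of 7 libraries. Without PV replicate 4, 5 members fell: Stx17, Syt3 (-1.02), Stx12 (-0.55), Syt2 (-0.48, adjusted p = 0.0305) and Vamp1 (-0.45, adjusted p = 0.0419). Of all 10988 genes 178 fell in that fit. With all 4 replicates Syt2 held 473, 545, 447 and 727 CPM after kainic acid and Vamp1 358, 376, 366 and 633, so that replicate 4 was the highest in both, and the differences from PBS of -0.25 (SE 0.19) and -0.22 (SE 0.20) did not pass. Cplx1 held 1532, 1685, 1534 and 2658 CPM after kainic acid, again highest in replicate 4, and Sv2b 861, 849, 733 and 340.1 CPM, lowest in replicate 4. Cplx1 (-0.05, 95% interval -0.44 to 0.34), Sv2b (0.15) and Snap25 (0.10, -0.20 to 0.40) did not pass either.

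In the PV input 3 of 42 members were higher and 2 lower after kainic acid, where 8.2% and 3.36% of all 11145 genes were. Syt4 rose by 1.97 (SE 0.15), Sv2c by 1.19 (SE 0.19) and Rims4 by 0.96 (SE 0.22), and Syt14 (-0.77, SE 0.19) and Syt16 (-0.63, SE 0.19) fell. Rims4 lost its call without PBS replicate 2 (adjusted p = 0.053), Syt14 without kainic acid replicate 3 or PBS replicate 1, 2 or 3, and Syt16 without kainic acid replicate 2 or 3 or PBS replicate 1, 2 or 3. Without kainic acid replicate 4 alone the counts were 5 and 5, where 1151 and 616 of all 11251 genes were called. With the replicate number as a block, 8 members were higher and 14 lower, though the pools of the 2 treatments are different ones. The block raised the counts over all 11145 genes too, from 914 and 374 to 1835 and 1590. The block added Syt3 (-0.91, adjusted p = 1.16e-05), Stx7, Stx17, Cplx2 and Syt1 to the falls and Stx4a (0.49, adjusted p = 0.00166) to the rises, among others. Without PV replicate 4 the counts were 6 and 8, where 1608 and 1150 of all 11118 genes were called.

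**Figure D5:**
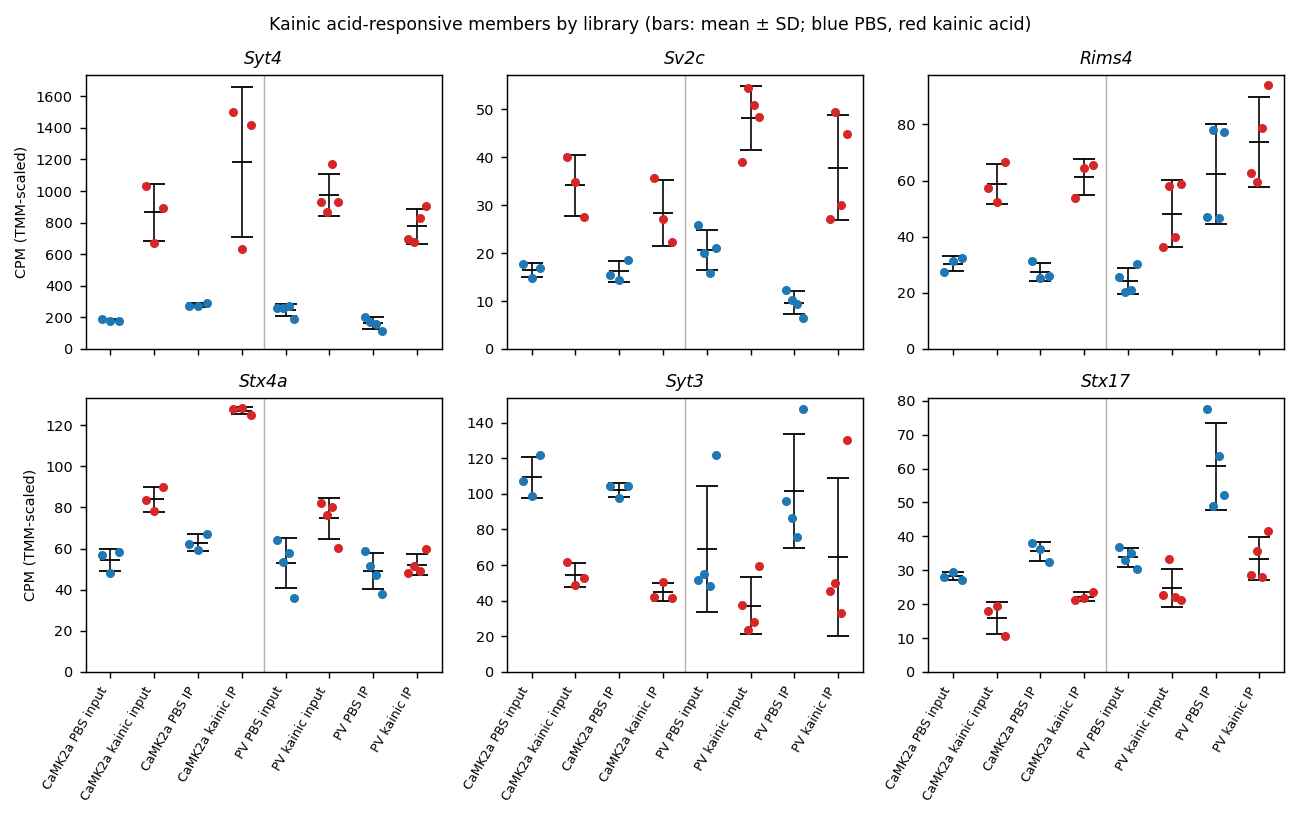
Level in CPM of 6 members in each of the 28 libraries, by group, with bars for mean and SD. Syt4 and Sv2c are higher after kainic acid in all 4 fractions, and Stx4a (bottom left) is higher after kainic acid in the CaMK2a IP but overlaps between treatments in the PV IP.

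The same members were then compared between lines. All 18 members called in the CaMK2a IP had the same sign in the PV IP, from libraries the comparisons do not share, and so did the 19 of the CaMK2a input that were tested in the PV input. How often all called genes kept their sign was not counted, so whether this is particular to the members cannot be told. Pearson's r across members was 0.72 between the IPs (41 members) and 0.89 between the inputs (42 members). The test of the difference of the kainic acid effects, PV IP minus CaMK2a IP, passed for 0 of 41 members by edgeR's quasi-likelihood test and for 0 by DESeq2, where 0.0934% of all 11781 genes passed in either direction. At an unadjusted p under 0.05 there were 4: Stx4a (-0.95, SE 0.24, adjusted p = 0.283), Rims4 (-0.94, SE 0.32, adjusted p = 0.57), Sv2c (1.14, SE 0.40, adjusted p = 0.599) and Syt13 (0.60, SE 0.28, adjusted p = 0.804). Stx4a held 58.9, 51.7, 47.3 and 37.9 CPM in the PV IPs after PBS and 48.1, 51.7, 49.3 and 59.5 after kainic acid, and its difference between the lines passed without PV replicate 4 (-1.07, adjusted p = 0.0366). For Syt4 the difference was 0.13, with a 95% interval of -0.51 to 0.78.

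Other genes of the release pathway, a list of 58 that includes Munc18 proteins, active zone proteins and further vesicle proteins, was counted the same way. In the CaMK2a IP 5 of 42 tested rose after kainic acid and 11 fell, where 19.8% and 15.3% of all genes did. The largest fall was that of Stxbp6, a SNARE-binding protein (-1.55, SE 0.15), followed by Rab3d (-1.18) and Rab27b (-0.65), small GTPases of secretory vesicles, and Mctp2 (1.5) and Rph3a (0.57), a Rab3 effector, were among the rises. In the CaMK2a input 1 of 43 rose and 15 fell, where 19.3% and 15.7% of all genes did. In the PV input 0 of 43 rose and 2 fell, where 8.2% and 3.36% did. In the PV IP 0 of 43 rose and 1 fell, where 4.05% and 0.801% did, and the 1 was Doc2b, a calcium sensor of spontaneous release (-1.09, SE 0.25, edgeR adjusted p = 0.0142). Between the IPs after PBS 9 of 43 were higher in the PV IP and 13 lower, where 18% and 14.3% of all genes were, so that the share higher was near that of all genes. Rab3b (1.62, SE 0.15), Dnm3 (1.77, SE 0.15), the active zone scaffold Bsn (1.22, SE 0.17) and Rph3a (1.02, SE 0.15) were higher, and Doc2b (-2.09, SE 0.15) and Prrt2 (-2.05, SE 0.14) lower.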

How the data were processed

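RNA was measured in 28 libraries, grouped by line, treatment and fraction from the labels, and p-values measure the spread between pools of mice. Per the submitters' processing notes reads were aligned to mm10 (GRCm38) with BWA and compared with edgeR. The authors deposited 12 files, genes higher and lower in each of 6 comparisons apart, which were joined here. The deposited counts are whole reads per gene and were the values analysed. Per the file headers RPKM columns scale reads to length and library total, fold columns are linear ratios of group means, and p-value and FDR columns are the authors' own; none of these was used in a test, nor was the deposited CPM column. Of 189281 counts of a library held by several tables, 0 differed.

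The main test was edgeR 4.0.16 (R 4.3.3), quasi-likelihood, on the libraries of the groups compared, with TMM factors, filterByExpr (minimum count 10), prior count 0.125 and Benjamini-Hochberg adjustment over all genes tested, called under 0.05; SE is the log2 fold change divided by the root of F. It was tested on simulated counts. CPM levels use TMM factors over all 28 libraries. Isoform shares used counts per kb and exact permutation tests (scipy 1.17.1). DESeq2 1.42.0, other factors, filters, fits and left-out libraries were tried. Replicate numbers pair input and IP of 1 lysate pool, per the labels' design. The treatments share no pool. Between treatments, deviations of same-numbered inputs correlated (0.122 to 0.334 in the CaMK2a line, 0.234 to 0.762 in the PV line). A block on the number was therefore read as a pairing of the inputs, and not of the IPs. That choice came from these same data, and the main test used no block.

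Every member could be named, except 1 that is not reported here and is kept in the counts only; members given by library were set in a list, with those of largest change added. The members and lists were chosen with earlier results of these data known. The strand setting of the counting, and tool versions, are not given in the sources used here; 9 members share exon sequence with a gene on the opposite strand.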

Additional observations from a re-analysis of the deposited data

Results flagged for a closer look

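Within groups of 4 PV libraries, 11 of 72 sets of values for the leading members and shares had a library far from the other 3 by Dixon's test, where chance flags about 1 in 20, and 10 of the 11 were replicate 4. In the kainic acid input replicate 4 was lowest for Snap25 (6572 CPM) and highest for Cplx1 (613.4 CPM) and the Cplx1 share (60.9%). In the kainic acid IP it was highest for Vamp1 (632.9 CPM), Cplx1 (2658 CPM) and Sv2a (545.8 CPM) and lowest for the Sv2b share (25.1%). In the PBS input it was lowest for Snap25 (5958 CPM) and the Sv2b share (63.4%) and highest for Sv2a (402.4 CPM). The other case was Vamp2 in PBS input replicate 2 (1427 CPM).

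The enrichment of IP over input after PBS differed between the lines for 24 members by the edgeR test of the difference itself, given as PV minus CaMK2a on the log2 scale. It was positive for Syt2 (4.67), Vamp8 (3.76, from very few counts, so that the value depends on the prior count), Vamp1 (2.68), Cplx1 (2.53), Rims4 (1.46), Vamp3 (1.16) and Sv2a (1.08). It was negative for Syt16 (-2.0), Syt14 (-1.64), Cplx2 (-1.63), Syt10 (-1.62), Syt5 (-1.62), Sv2b (-1.54), Syt4 (-1.23), Unc13b (-1.15), Sv2c (-1.11), Snap29 (-0.95), Stx6 (-0.89), Stx7 (-0.87), Syt12 (-0.85), Vamp4 (-0.83), Snap25 (-0.79), Syt1 (-0.61) and Vamp2 (-0.51).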

How the results depend on the processing

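Of 135 changes of named members, 103 kept their call under every alternative run, 32 lost it under at least 1, and 0 turned in direction. Members lower in the PV IP after kainic acid numbered 1 and became 0 with relative log expression factors, 0 with no filter on low counts, 2 with the replicate block and 5 with PV replicates 1 to 3 only. In the PV input 3 higher and 2 lower became 8 and 14 with the replicate block and 6 and 8 with PV replicates 1 to 3. The counts over all genes rose too, from 914 and 374 to 1835 and 1590 with the block. With PV replicates 1 to 3 those counts were 1608 and 1150. The lower count of members in the PV input was 1 with no filter and 1 with all groups of the line in 1 fit. IP over input became 17 higher in the CaMK2a line after PBS with upper-quartile factors, and in the PV line after kainic acid 12 and 5 with the block and 10 and 5 with PV replicates 1 to 3. Between inputs, DESeq2 gave 8 higher, and PV replicates 1 to 3 gave 17 and 15. The difference of kainic acid effects gave 1 lower member with PV replicates 1 to 3. The cause was not tested.

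Treatments were taken as paired where every correlation of same-numbered libraries was over 0.1, which held for the inputs (best with their own number in 2 of 3 CaMK2a and 2 of 4 PV) and not for the IPs (-0.271 to 0.186 for CaMK2a and 0.054 to 0.494 for PV, best in 1 of 3 and 3 of 4). The block on the IPs gave 6 and 9 in the CaMK2a line; the text gives the paired values where they moved a count, and single paired calls were Syt17 lost and Snap23 and Syt4 gained in the CaMK2a line, with Stx8, Sv2b and Syt5 among those gained in its input.

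With 1 library left out, members higher and lower after kainic acid ranged from 5 to 11 and 8 to 12 in the CaMK2a IP, 6 to 11 and 8 to 13 in its input, 2 to 2 and 0 to 2 in the PV IP, and 2 to 5 and 0 to 5 in the PV input. For IP over input they were 23 to 25 and 6 to 7 (CaMK2a, PBS), 11 to 19 and 6 to 9 (CaMK2a, kainic acid), 8 to 11 and 4 to 7 (PV, PBS) and 4 to 7 and 0 to 2 (PV, kainic acid). For PV against CaMK2a they were 7 to 9 and 10 to 17 (IP, PBS), 3 to 6 and 5 to 12 (IP, kainic acid), 0 to 17 and 0 to 15 (input), and 7 to 8 and 16 to 19 for the difference of enrichments.

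Differences of shares between the lines kept their direction throughout. Those between treatments near 0 did not: Syt2 in the PV input was 0.0779 points with PV replicates 1 to 3, and Sv2b without division by length was -0.446 points in the PV IP and -0.25 in the PV input. With 1 library left out the ranges were -0.123 to 0.0126 (Syt2, CaMK2a IP), -0.108 to 0.103 (Syt2, PV input), -0.112 to 0.264 (Vamp1, CaMK2a IP), -3.88 to 0.866 (Cplx1, PV IP), -1.09 to 4.72 (Cplx1, PV input), -0.207 to 4.01 (Sv2b, CaMK2a IP), -2.64 to 10.98 (Sv2b, PV IP) and -4.18 to 5.64 (Sv2b, PV input).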
